A study of Mus musculus with 20 samples.

Results

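This account describes the transcripts of apolipoproteins and of lipoprotein assembly in the livers of 20 mice. The list names 10 genes, and the array annotation carried 9 of them (Apoa1, Apoa2, Apoa4, Apoa5, Apob, Apoc3, Apoe, Apom and Mttp), out of 19505 genes with a symbol. Members were found by gene symbol, each with 1 probe set, a group of probes summarised to 1 signal. Apoc2 matched no symbol and was not analysed here.

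The 4 groups of 5 mice crossed feeding with genotype. All mice had water throughout, and they either had food at all times (fed) or were housed singly without it for 48 h in wire-bottom cages (fasted). Single housing and the cage are described for fasted mice alone, so their effects cannot be told apart from that of the fast. Mcl1(L-/-) mice, called Mcl1KO here, were Mcl1(F/F) animals given AAV-LP1-Cre, an adeno-associated virus that expresses Cre recombinase from a liver promoter, to delete Mcl1, a survival gene of the BCL2 family. The growth protocol is worded alike for all samples, and the labels do not say what WT mice were given. Loss of Mcl1 and any effect of the vector therefore cannot be told apart. The labels state no age, sex or strain. RNA came from whole liver. Each array held 1 mouse, and the deposited values are log2 signals, so a difference of 1 is a 2-fold change. Fewer cells of a type and less RNA per cell cannot be told apart in such samples.

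The liver exports triglyceride in very low density lipoprotein (VLDL). ApoB forms the frame of the particle, and the microsomal triglyceride transfer protein, encoded by Mttp, loads it with lipid in the endoplasmic reticulum. Smaller apolipoproteins move between particles in plasma, where they guide lipases, inhibit clearance or bind receptors, while ApoA-I and ApoA-II build high density lipoprotein (HDL). Fasting sends fatty acids from adipose tissue to the liver, which oxidises them or returns them to plasma as VLDL.

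Labels and cell types were checked first. Mcl1 was at 7.16 to 7.60 over the 10 WT livers and 5.83 to 6.50 over the 10 Mcl1KO livers, with no overlap. Hepatocyte markers were bright, from a mean log2 signal of 8.82 for Hnf4a to 12.5 for Alb. The mean of the 9 measured markers lay between 10.94 and 11.04 with food and between 11.08 and 11.18 in the fast, both genotypes together. With fasting 2 of the 9 rose in WT, and 3 rose and 1 fell in Mcl1KO livers. Over all probe sets 3.10% rose in WT, and 8.20% rose and 6.25% fell in Mcl1KO livers. Members of this family are also expressed by gut enterocytes (Apoa4, Apob, Mttp) and by macrophages (Apoe). Of 10 enterocyte markers 8 had a mean under 5, with the sucrase gene Sis lowest at 2.24. The others were Anpep, at 8.73, and Fabp2, with group means from 7.73 to 8.85. With fasting in Mcl1KO livers Fabp2 rose and Anpep fell, and the list mean averages over both. The mean of the enterocyte list was 3.94 to 4.18 for fed WT arrays and 3.99 to 4.17 for fasted ones. For Mcl1KO arrays it was 4.07 to 4.14 fed and 4.03 to 4.20 fasted.

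The promoters of the 4 members that were called in a fasting comparison are shown because these members differ in direction as well as size. Each window runs from 250 bases before the annotated start to 50 bases after it, 5′ to 3′ on the gene's strand, from RefSeq on build GRCm38.p6. Apoa4 is on the plus strand at chr9:46240594-46240893, Apoa5 on the plus strand at chr9:46268358-46268657, Apom on the minus strand at chr17:35131752-35132051 and Mttp on the minus strand at chr3:138143369-138143668. Capitals mark matches to any of the motifs described in the next paragraph.
Apoa4: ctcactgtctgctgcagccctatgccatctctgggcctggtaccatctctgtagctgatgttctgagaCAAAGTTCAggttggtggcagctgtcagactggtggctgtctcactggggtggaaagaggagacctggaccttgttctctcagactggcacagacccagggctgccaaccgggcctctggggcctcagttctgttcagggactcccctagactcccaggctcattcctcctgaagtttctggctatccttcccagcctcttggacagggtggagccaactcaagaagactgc
Apoa5: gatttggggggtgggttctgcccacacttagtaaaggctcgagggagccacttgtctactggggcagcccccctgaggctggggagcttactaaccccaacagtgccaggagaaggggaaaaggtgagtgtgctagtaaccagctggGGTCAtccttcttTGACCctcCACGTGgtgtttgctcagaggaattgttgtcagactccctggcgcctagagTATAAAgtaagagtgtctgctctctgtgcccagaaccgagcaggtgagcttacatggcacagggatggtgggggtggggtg
Apom: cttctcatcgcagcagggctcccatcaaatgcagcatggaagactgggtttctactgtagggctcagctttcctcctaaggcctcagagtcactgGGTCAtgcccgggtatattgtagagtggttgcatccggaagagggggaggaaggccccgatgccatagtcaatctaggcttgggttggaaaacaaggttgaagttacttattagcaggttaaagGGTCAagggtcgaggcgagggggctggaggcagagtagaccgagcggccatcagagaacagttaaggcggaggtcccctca
Mttp: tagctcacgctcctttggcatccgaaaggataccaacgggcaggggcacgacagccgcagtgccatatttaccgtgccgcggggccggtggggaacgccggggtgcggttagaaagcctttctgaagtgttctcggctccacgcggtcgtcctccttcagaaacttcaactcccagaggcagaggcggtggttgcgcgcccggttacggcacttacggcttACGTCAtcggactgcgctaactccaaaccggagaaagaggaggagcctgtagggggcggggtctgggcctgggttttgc

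Motifs were searched on both strands in the 9 member promoters for which a window was listed, Apoc2 included and Apoc3 not. Only the first listed window of each member was used, although Apoa2 and Apoa5 had 2 listed and Apoe 3. The shares over all windows count every listed window. The sequence CAAAGTNCA, of the type bound by the hepatocyte receptor HNF4A, was found in Apoa4 alone of the 9 windows, first base at -182 from its start site, and in 1.41% of all 32851 windows. The nuclear receptor half-site GGTCA occurred in 4 of the 9 (Apoa5, Apoc2, Apoe and Apom) and in 40.5% of all windows. In Apoa5 a pair of them in opposite orientation stood just before an E-box, CACGTG, which 7.15% of windows held. The core ACGTCA of the cyclic AMP response element was found in Mttp alone, first base at -29, and in 7.51% of windows. TATAAA was found in Apoa2, Apoa5 and Apob and in 13.6% of windows. These matches describe the letters and are not evidence of binding.

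Among the exchangeable apolipoproteins, Apoa4 and Apoa5 were higher in fasted than in fed livers of both genotypes. Apoa4 encodes an apolipoprotein of triglyceride-rich particles and HDL, and Apoa5 a liver protein that promotes lipolysis by lipoprotein lipase. Apom, which encodes the HDL carrier of sphingosine-1-phosphate, fell in both genotypes, and Mttp rose in Mcl1KO livers. Apoa1, Apoa2, Apob, Apoc3 and Apoe were not called in any comparison, and no member was called between genotypes or for the interaction. The differences came from limma's moderated test over all 20 arrays with Benjamini-Hochberg adjustment over 22206 probe sets. Called means an adjusted p under 0.05. In WT livers 2 of 9 members rose, where 3.10% of all probe sets rose, and 1 fell, where 3.68% fell (6.79% called in all). In Mcl1KO livers 3 of 9 rose, where 8.20% of probe sets rose, and 1 fell, where 6.25% fell (14.4% called in all). Dim probe sets are part of these shares, while the members are bright. A filter kept 11898 probe sets above the table median on at least 5 arrays, all 9 members among them. Of these, 791 rose and 883 fell in WT livers. The median log2 difference of the members was 0.14 in both genotypes, against 0.015 in WT and -0.0015 in Mcl1KO over all probe sets.

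**Figure D1:**
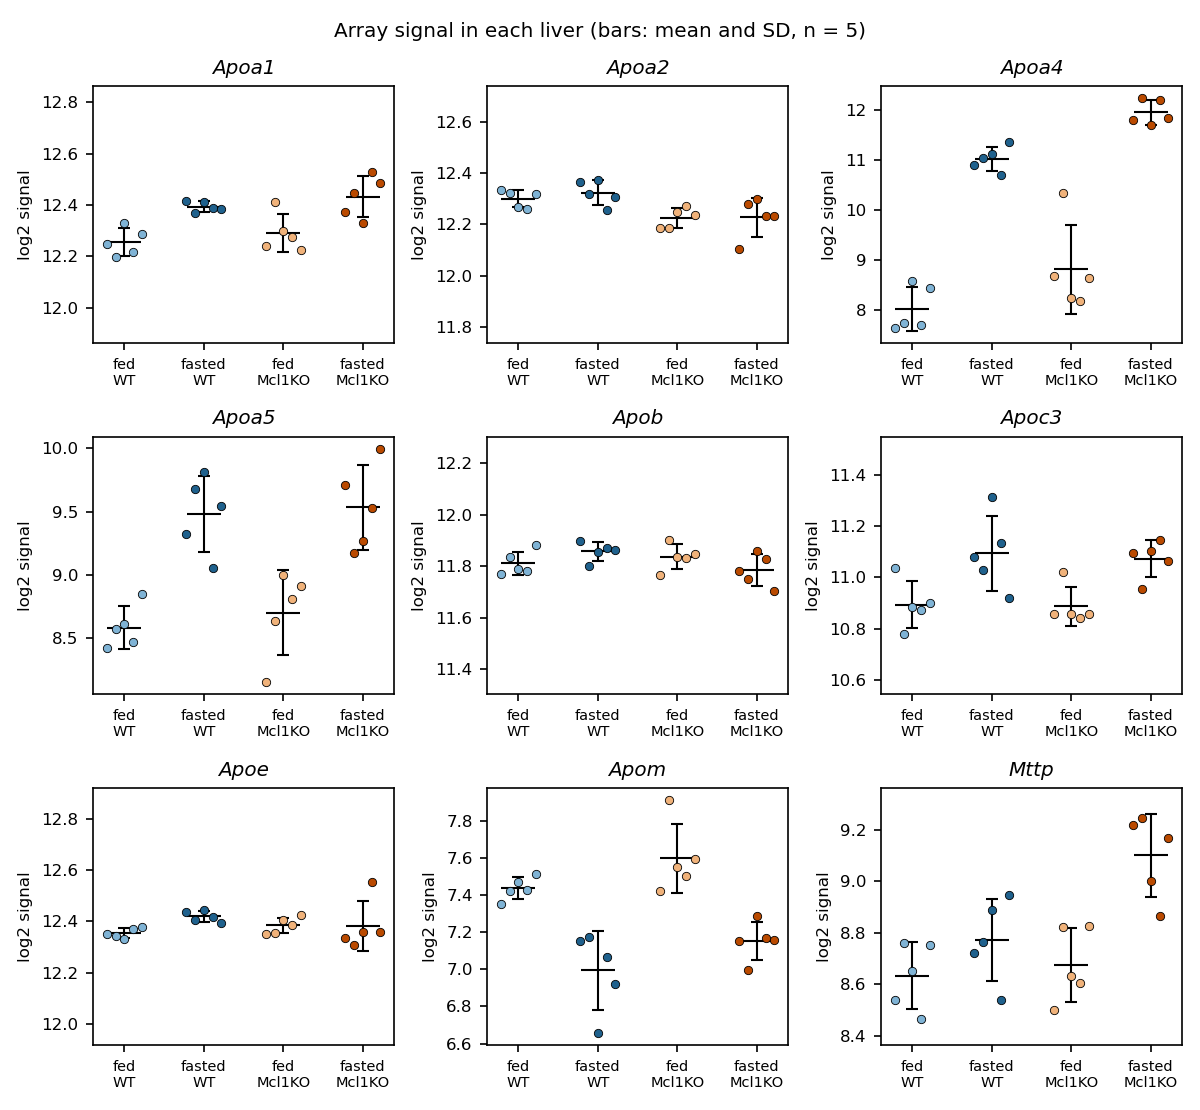
Log2 signal of each member (vertical axes, each with its own range of at least 1 unit) in every liver of the 4 groups, with the mean and SD (n = 5). Fasted livers lie above fed livers for Apoa4 and Apoa5 and below them for Apom in both genotypes, while Apob and Apoe differ by less than 0.1 between any group means.

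Apoa4 had the largest change of the family. In fed WT livers its log2 signals were 7.64, 7.75, 8.57, 7.70 and 8.43, and in fasted WT livers 10.89, 11.03, 11.12, 10.69 and 11.35. Fed Mcl1KO livers gave 8.67, 10.34, 8.23, 8.17 and 8.64, and fasted Mcl1KO livers 11.80, 12.24, 11.70, 12.19 and 11.83. Every fasted liver was above every fed liver, of either genotype. The log2 difference with fasting was 2.996 in WT (SE 0.29, limma adjusted p = 2.11e-07) and 3.14 with the same SE in Mcl1KO livers (adjusted p = 4.41e-08). No enterocyte marker was called with fasting in WT livers, where 6.79% of all probe sets were. In Mcl1KO livers Fabp2 and Cdx2 rose by 1.12 and 0.27 and Anpep fell by 0.95. Over all probe sets 8.20% rose and 6.25% fell there. Cdx2 was dim, with Mcl1KO means of 2.20 fed and 2.47 fasted, below the array medians of 3.35 to 3.47. The part of these markers in the result was not tested. Fed Mcl1KO replicate 2, at 10.34, stood apart from its group, whose other livers reached at most 8.67. Without it the fasting difference in Mcl1KO livers was 3.52.

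All 5 fasted Mcl1KO livers had more Apoa4 signal than any fasted WT liver (11.70 to 12.24 against 10.69 to 11.35). Kupffer cell markers were also higher there (5 of 12 called, where 3.32% of all probe sets were higher), and their part was not tested. The Apoa4 difference was 0.94 on the log2 scale (95% interval 0.34 to 1.53) and did not pass the threshold (limma adjusted p = 0.0617). In that comparison 2.54% of all probe sets lay wholly higher in Mcl1KO. The test shares its estimate of the spread with the fed groups, and without fed Mcl1KO replicate 2 the same difference had an SE of 0.18 in place of 0.29 and passed (adjusted p = 0.00473). It also passed without fasted Mcl1KO replicate 3 (0.998, adjusted p = 0.0491), in a fit to the fasted arrays alone (adjusted p = 0.0086) and with dim probe sets removed (adjusted p = 0.0447). Over all alternatives the adjusted p ran from 0.00473 to 0.147. In fed livers the difference between genotypes was 0.79 (95% interval 0.20 to 1.39, adjusted p = 0.589) and 0.41 without fed Mcl1KO replicate 2, and the groups overlapped.

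The 5 genes nearest to Apoa4 in pattern were Cyp4a31, Insig2, Defb1, Abhd2 and Omd. Likeness was the root mean square distance between centred log2 signals over the 20 arrays. It was 0.650 for Cyp4a31, a fatty acid hydroxylase gene, 0.652 for Insig2, which encodes a protein that retains the SREBP complex in the endoplasmic reticulum, 0.743 for the defensin gene Defb1, and 0.757 for both Abhd2 and Omd. The median over all probe sets was 1.67, about the distance of Apoa4 from its own mean (1.66). In WT livers the fasting differences of these 5 genes ran from 1.42 (Abhd2) to 2.28 (Insig2), each below the 2.996 of Apoa4. In Mcl1KO livers they ran from 1.94 (Abhd2) to 3.19 (Cyp4a31). The genes were chosen for closeness to Apoa4 on these same arrays, so a large rise with fasting follows from the choice. Fed means of Omd (2.08 in WT, 2.04 in Mcl1KO) and Defb1 (2.96 and 3.03) lay below the array medians of 3.35 to 3.47. Differences of such dim genes may be understated.

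Apoa5 rose by less. Its signals were 8.42, 8.57, 8.61, 8.47 and 8.85 in fed WT and 9.33, 9.68, 9.81, 9.05 and 9.54 in fasted WT livers. They were 8.15, 8.64, 8.997, 8.81 and 8.91 in fed Mcl1KO and 9.71, 9.17, 9.27, 9.53 and 9.998 in fasted Mcl1KO livers. Fed and fasted livers did not overlap in either genotype, as 3.54% of probe sets did upward in WT and 5.88% in Mcl1KO. The log2 difference with fasting was 0.90 in WT livers (SE 0.17, limma adjusted p = 0.0013). The Mcl1KO value was 0.83 (adjusted p = 0.0012). These are rises of 1.86-fold and 1.78-fold. Between genotypes Apoa5 differed by 0.12 in fed livers (95% interval -0.24 to 0.47) and 0.05 in fasted livers (-0.30 to 0.40).

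Apoa1, Apoc3, Apoa4 and Apoa5 are neighbours on chromosome 9, in that order. Apoc3, next to Apoa4, differed by 0.20 with fasting in WT livers (SE 0.09, limma adjusted p = 0.237). Its Mcl1KO value was 0.19 (adjusted p = 0.209). Apoc3 encodes an inhibitor of lipoprotein clearance and lipolysis. Its signals were 11.04, 10.78, 10.88, 10.87 and 10.90 in fed WT and 11.08, 11.03, 11.31, 11.13 and 10.92 in fasted WT livers. Fed Mcl1KO livers gave 10.86, 11.02, 10.86, 10.84 and 10.86, and fasted Mcl1KO livers 11.09, 10.95, 11.10, 11.15 and 11.06. The ranges overlapped in both genotypes. In Mcl1KO livers only fed replicate 2 reached into the fasted range, and without it the difference was 0.22 (adjusted p = 0.159).

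**Figure D2:**
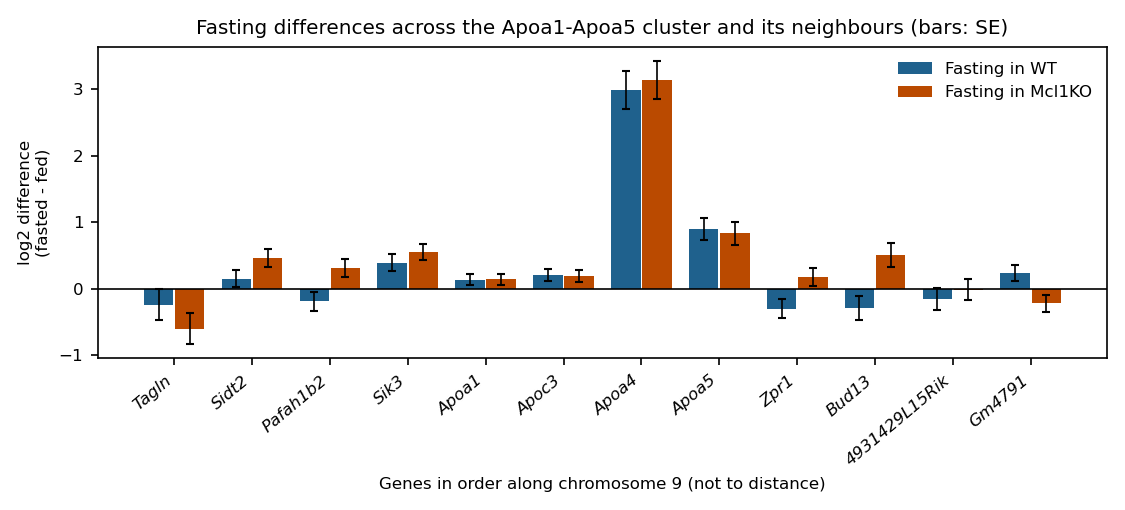
Fasting differences (log2, fasted minus fed, bars with SE) for the cluster from Apoa1 to Apoa5 and the 4 measured genes on either side, in gene order along chromosome 9 and not to distance. Apoa4 and Apoa5 stand above the rest in both genotypes, and Apoa1 and Apoc3 stay at or below 0.20.

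The 4 protein-coding genes on each side of that cluster were looked at after the members' values were seen. In WT livers none of these 8 genes was called, where 6.79% of all probe sets were. The closest was Sik3, a kinase gene beside Apoa1, at 0.39 (adjusted p = 0.0549). In Mcl1KO livers Sik3 rose by 0.55 (adjusted p = 0.0025) and Sidt2 by 0.46 (adjusted p = 0.0166). The other 6 were not called, and 14.4% of all probe sets were called in that comparison. On the far side of Apoa5, the WT value of Zpr1 was -0.30 (adjusted p = 0.27) and its Mcl1KO value 0.18 (adjusted p = 0.526). In the cluster on chromosome 7 that holds Apoe, its neighbour Apoc1 differed by -0.10 in WT and -0.15 in Mcl1KO livers (adjusted p = 0.693 and 0.432).

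Apom, a lipocalin of HDL, was the member that fell. Fed WT livers had 7.35, 7.42, 7.47, 7.43 and 7.51, and fasted WT livers 7.15, 7.17, 6.65, 7.07 and 6.92. Fed Mcl1KO livers had 7.43, 7.92, 7.55, 7.505 and 7.60, and fasted Mcl1KO livers 7.15, 6.996, 7.29, 7.17 and 7.16. All fasted livers were below all fed livers of either genotype, with fasted WT replicate 3 lowest and fed Mcl1KO replicate 2 highest. Over all probe sets 3.81% lay wholly lower in fasted WT and 4.37% in fasted Mcl1KO livers. The fasting difference was -0.44 in WT livers (SE 0.11, limma adjusted p = 0.0123). For Mcl1KO it was -0.45 (SE 0.11, adjusted p = 0.0056), and each is a fall of 1.36-fold. Without fed Mcl1KO replicate 2 the Mcl1KO value was -0.37 (adjusted p = 0.0231). Mcl1KO exceeded WT by 0.16 in fed livers (95% interval -0.06 to 0.39) and by 0.16 in fasted livers (-0.07 to 0.38), and neither was called.

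Mttp, the assembly factor, rose with fasting in Mcl1KO livers. Its signals were 8.50, 8.82, 8.63, 8.60 and 8.82 in fed Mcl1KO and 9.22, 9.25, 9.003, 8.87 and 9.17 in fasted Mcl1KO livers, with no overlap. The difference was 0.42 (SE 0.11, limma adjusted p = 0.0072), or 1.34-fold. Fed WT livers had 8.54, 8.76, 8.65, 8.46 and 8.75, and fasted WT livers 8.72, 8.76, 8.89, 8.54 and 8.95. These ranges overlapped, and the difference of 0.14 (95% interval -0.08 to 0.36) was not called (adjusted p = 0.582). The interaction, which tests whether the fasting difference was unlike in the genotypes, was 0.29 (95% interval -0.03 to 0.60, adjusted p = 0.491), so a difference between genotypes was not shown. Fasted Mcl1KO livers exceeded fasted WT livers by 0.33, which was not called (adjusted p = 0.0795). This difference stayed uncalled in 27 of 29 alternatives, with adjusted p up to 0.195. It passed without fasted Mcl1KO replicate 4 (0.39, adjusted p = 0.0436) and with trend and robust moderation (adjusted p = 0.0449).

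Apob, the frame of VLDL, stayed within a narrow band. WT livers averaged 11.81 ± 0.05 (SD, n = 5) fed and 11.86 ± 0.04 fasted, and Mcl1KO livers 11.84 ± 0.05 fed and 11.78 ± 0.06 fasted. The lowest single array was 11.70 and the highest 11.90. With fasting it differed by 0.05 in WT (95% interval -0.11 to 0.21) and by -0.05 in Mcl1KO livers (-0.21 to 0.11). Neither interval of the measured signal reaches a change of the size measured for Mttp in Mcl1KO livers. Apob lies much higher in the array's range than Mttp, and how linear the signal remains there was not tested.

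Apoa1, the main protein of HDL, measured slightly higher in fasted livers. Its signals were 12.25, 12.20, 12.33, 12.22 and 12.29 in fed WT and 12.42, 12.37, 12.41, 12.39 and 12.38 in fasted WT livers, which do not overlap. In Mcl1KO livers they were 12.24, 12.41, 12.30, 12.27 and 12.23 with food and 12.37, 12.45, 12.33, 12.53 and 12.48 without, which do. The difference was 0.14 in both genotypes (SE 0.08, limma adjusted p = 0.406 in WT and 0.296 in Mcl1KO). Moderation raises the spread of so steady a probe set, whose within-group SD was 0.062 against a median of 0.215 over all probe sets. With ordinary variances, an alternative chosen after seeing the data, the SE was 0.039 and the adjusted p 0.0508 in WT and 0.0222 in Mcl1KO livers.

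Apoe, the ligand by which remnants are cleared, averaged 12.36 ± 0.02 (SD, n = 5) in WT livers fed and 12.42 ± 0.02 fasted, and 12.38 ± 0.03 in Mcl1KO livers fed and 12.38 ± 0.10 fasted. The fasted WT arrays, at 12.39 to 12.44, lay just above the fed WT arrays, at 12.33 to 12.38. That difference of 0.06 was not called (limma adjusted p = 0.765). Fasted Mcl1KO replicate 4, at 12.55, stood apart from the other 4 livers of its group, at 12.31 to 12.36.

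Kupffer cells, the liver macrophages, also express Apoe, and their markers moved in these comparisons. Of 12 such markers 5 fell with fasting in WT livers, where 3.68% of all probe sets fell, and 3 fell in Mcl1KO livers, where 6.25% did. Their list mean was 5.38 to 5.85 for fed WT arrays and 4.59 to 5.03 for fasted ones, and 5.52 to 5.88 for fed Mcl1KO arrays and 5.08 to 5.83 for fasted ones. Their part in the Apoe values was not tested.

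Apoa2, the second protein of HDL, averaged 12.30 ± 0.03 (SD, n = 5) in WT livers fed and 12.32 ± 0.05 fasted, and 12.23 ± 0.04 in Mcl1KO livers fed and 12.23 ± 0.08 fasted. Fasting differed from feeding by 0.02 in WT and 0.00 in Mcl1KO livers (0.0021). Mcl1KO livers measured lower by 0.07 with food (95% interval of the log2 difference -0.23 to 0.09) and by 0.10 in the fast (-0.26 to 0.06), neither of them called.

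The brightest members lie close to the top of the array's range. The highest value in the whole table was 12.56, and the highest arrays of Apoe (12.55), Apoa1 (12.53), Apoa2 (12.37) and Apoa4 (12.24) came within 0.32 of it. The highest Apob array, at 11.90, was 0.66 below it. How linear the signal remains at such levels was not tested, so small differences of these probe sets bound the RNA change loosely. The order of groups by mean was fed WT, fed Mcl1KO, fasted WT, fasted Mcl1KO for Apoa1, Apoa4, Apoa5 and Mttp. For Apom it was fasted WT, fasted Mcl1KO, fed WT, fed Mcl1KO. Within these orders the steps between genotypes at the same feeding state did not pass the test for any of them.

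**Figure D3:**
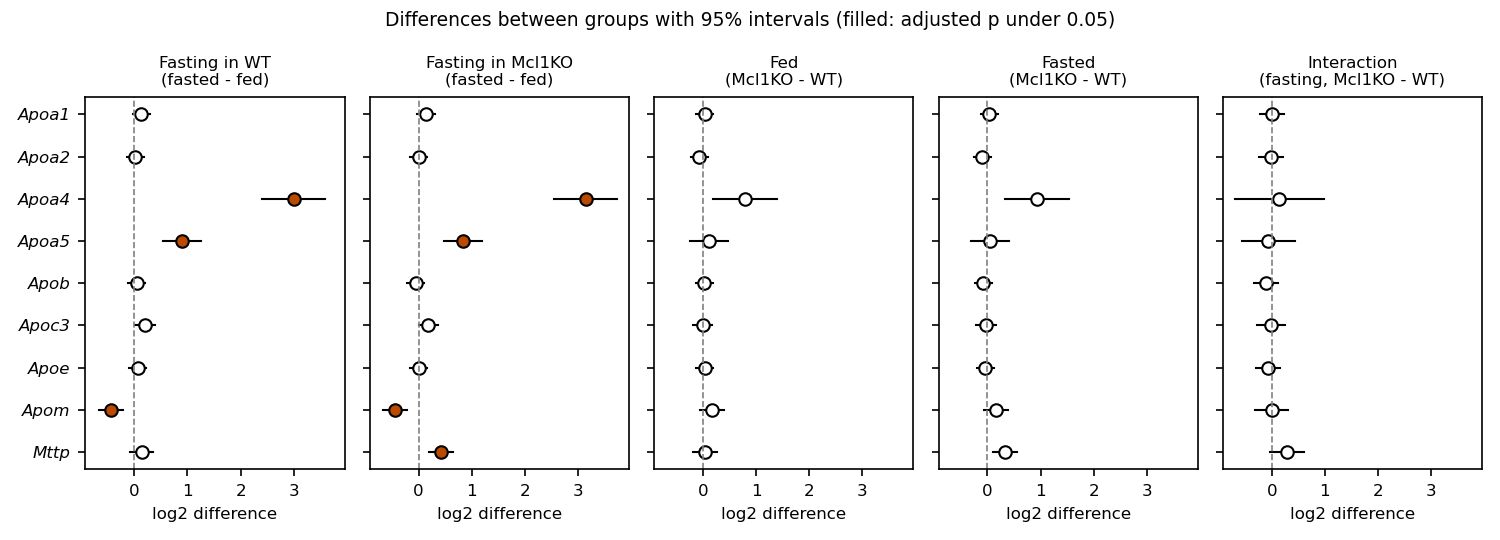
Log2 differences of the 9 members (points) with 95% intervals (lines) for the 5 comparisons, filled where the adjusted p is under 0.05. Calls appear for Apoa4, Apoa5 and Apom in both fasting panels and for Mttp in that of Mcl1KO, and none in the 3 panels that compare genotypes.

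No interaction was called for any member, where 0.135% of all probe sets were called, and none had an unadjusted p under 0.05, where 11.2% of probe sets had. The interaction estimates were 0.14 for Apoa4 (95% interval -0.70 to 0.98), -0.07 for Apoa5 (-0.56 to 0.43) and 0.00 for Apom (-0.0031, interval -0.32 to 0.32). Between genotypes 0 of 9 members were called in fed livers, where 0.0360% of probe sets were called and 1 member, Apoa4, had an unadjusted p under 0.05, where 6.44% of probe sets had. In fasted livers 0 were called as well, where 4.99% of probe sets were, and 2 members, Apoa4 and Mttp, had an unadjusted p under 0.05, where 18.3% of probe sets had.

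Around the members, 98 further genes of the pathway were taken in 5 lists, and 88 were measured. With fasting in WT livers 6 of the 88 rose and 12 fell, and in Mcl1KO livers 14 rose and 27 fell (background 3.10% and 3.68%, and 8.20% and 6.25%). This background includes dim probe sets. With those removed, 87 of the genes were kept, and 9 rose and 13 fell in WT livers. Of the 11898 probe sets kept, 791 rose and 883 fell there. Without fasted WT replicate 3 the WT count over the 88 genes fell from 18 to 12. In fed livers limma called 0 of the 88 between genotypes, with 11 at an unadjusted p under 0.05, where 6.44% of all probe sets were. In fasted livers 2 were higher and 9 lower in Mcl1KO, where 3.32% and 1.67% of probe sets were. Without fasted Mcl1KO replicate 3 that count of 11 became 17.

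VLDL assembly and export had 25 measured genes. In WT livers 2 rose and 2 fell (background 3.10% and 3.68%), and in Mcl1KO livers 4 rose and 5 fell (8.20% and 6.25%). The median log2 difference was 0.05 in WT and 0.04 in Mcl1KO livers. Sec24d and Sec23a, coat proteins of the vesicles that leave the endoplasmic reticulum, rose by 0.63 and 0.55 in WT (limma adjusted p = 0.0094 and 0.0198). Leaving out fed WT replicate 2, fasted WT replicate 2 or fasted WT replicate 3 ended the Sec23a call (at most 0.0527 for its adjusted p). Sort1, a sorting receptor that binds ApoB, fell in both genotypes, by 0.84 and 0.77. In Mcl1KO livers Dgat1, a triglyceride synthase gene, rose by 1.22 and Tm6sf2, which aids VLDL lipidation, by 0.89 (adjusted p = 8.92e-05 and 5.85e-04). Aadac, a lipase gene of the endoplasmic reticulum, fell by 0.71 in WT and 1.28 in Mcl1KO livers, and it was lower in fasted Mcl1KO than in fasted WT livers by 1.13 (adjusted p = 1.28e-04).

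Receptors and uptake genes numbered 12. In Mcl1KO livers 5 rose and 3 fell with fasting (background 8.20% and 6.25%), while in WT 1 rose and 1 fell (3.10% and 3.68%). The WT rise was that of Scarb1, the HDL receptor gene, at 0.48 (limma adjusted p = 0.0498), and its call was lost in 19 of 29 alternatives. These were median centring, the replicate block, ordinary variances, and leaving out any fed array of either genotype, fasted WT replicate 1, 2, 3 or 4, or fasted Mcl1KO replicate 3 or 5 (adjusted p at most 0.145). Cd36, a fatty acid and lipoprotein scavenger receptor gene, rose by 1.97 in Mcl1KO (limma adjusted p = 3.19e-05) and measured 0.77 in WT livers. Its interaction was 1.20 (SE 0.41, adjusted p = 0.235). Mylip, whose product marks the LDL receptor for degradation, rose by 1.09 in Mcl1KO livers. Lrp1, a receptor for remnants, fell by 1.03 there (adjusted p = 7.07e-06) and measured -0.47 in WT (adjusted p = 0.0352), a call lost without any 1 of fed WT replicates 2, 4 and 5 and fasted WT replicates 3, 4 and 5 (adjusted p at most 0.106) and with ordinary variances (0.055).

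Lipases and remodelling genes numbered 12. In WT livers 1 rose and 2 fell with fasting (background 3.10% and 3.68%). In Mcl1KO livers 2 rose and 4 fell (8.20% and 6.25%). Angptl8 encodes an inhibitor of lipoprotein lipase that is abundant after meals. It fell by 1.997 in WT livers (limma adjusted p = 0.0145) and by 2.47 in Mcl1KO (adjusted p = 0.0011). Leaving out fed WT replicate 3 or fasted WT replicate 5 ended the WT call, as did trend and robust moderation or ordinary variances (at most 0.0606 for its adjusted p). Angptl4, an inhibitor of the same lipase that rises without food, rose by 1.01 in Mcl1KO (adjusted p = 0.0002) and measured 0.48 in WT livers. Lcat, the enzyme that esterifies HDL cholesterol, rose by 0.42 in WT (adjusted p = 0.0046). It was not called in Mcl1KO livers, with means of 10.19 fed and 10.44 fasted. Lipg fell by 1.67 in Mcl1KO livers (limma adjusted p = 0.0039). Abcg5 fell by 0.60 in WT (adjusted p = 0.0405), a call lost in 9 of 29 alternatives, and by 0.86 in Mcl1KO livers (adjusted p = 0.0012).

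**Figure D4:**
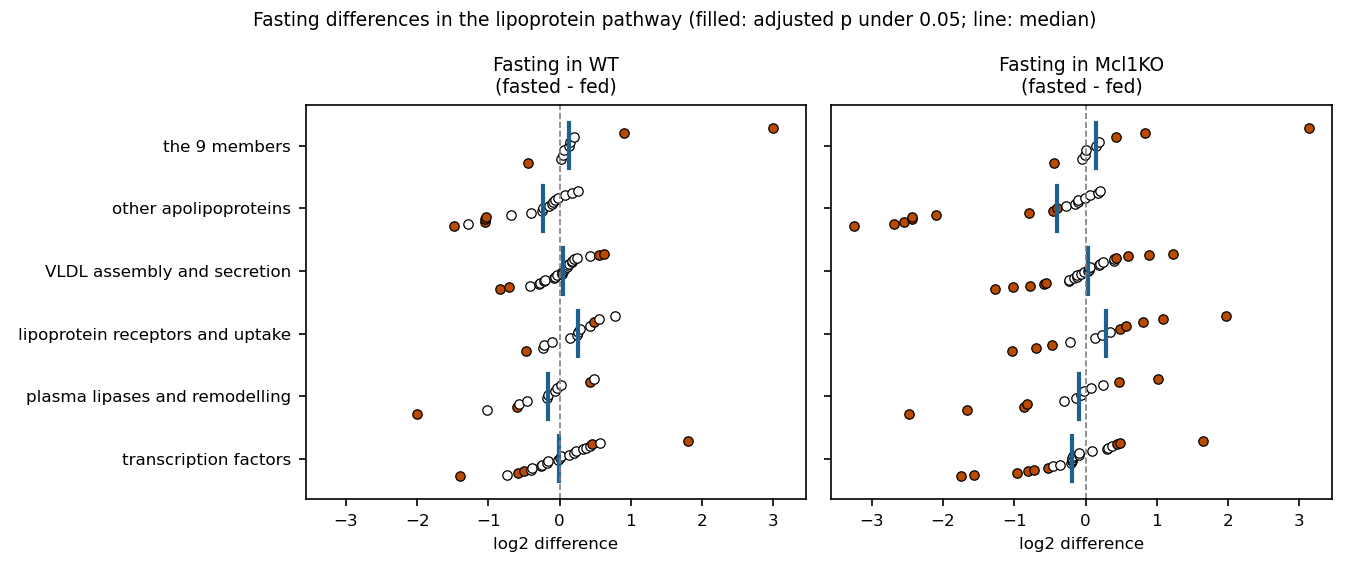
Log2 fasting differences of the 9 members and of the genes in the 5 pathway lists (points, filled where the adjusted p is under 0.05; vertical line, list median) in WT and Mcl1KO livers. The other apolipoproteins reach further down in Mcl1KO (median -0.40) than in WT (-0.23), and Apoa4 is the highest point of both panels.

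The list of other apolipoproteins, with serum amyloid, paraoxonase and Apob editing genes, had 17 measured members. In WT livers 4 fell and in Mcl1KO livers 9 (background 3.68% and 6.25%), with 0 higher in either (3.10% and 8.20%). The largest falls in Mcl1KO livers were those of Saa2 (-3.25), Saa1 (-2.69), Saa4 (-2.55), Apol7a (-2.44), Apol9a (-2.43) and Apol9b (-2.09). Saa1, Saa2 and Saa4 encode serum amyloid proteins of HDL. Those of Saa1 and Saa2 rise in inflammation, and Apol9a and Apol9b are interferon-induced. In WT livers the 4 that fell were Saa1, Apol9a, Apol9b and Apobec1. The WT value of Saa1 was -1.48 (limma adjusted p = 0.0479), and its call was lost in 15 of 29 alternatives. These were trend and robust moderation, ordinary variances, and leaving out fed WT replicate 1, 2 or 5, any fasted WT array, fed Mcl1KO replicate 5 or fasted Mcl1KO replicate 1, 2, 4 or 5 (adjusted p at most 0.134). Apol9a fell by 1.05 in WT and 2.43 in Mcl1KO livers (interaction -1.38, limma adjusted p = 0.0317). That interaction was lost in 12 of 20 fits without 1 array, fed WT replicates 2, 3 and 5, fasted WT replicates 1 to 4, fed Mcl1KO replicates 1, 2, 3 and 5 and fasted Mcl1KO replicate 5 (adjusted p at most 0.0709), and with ordinary variances (0.122). Apobec1, whose product edits Apob mRNA, fell by 1.04 in WT and 0.79 in Mcl1KO livers. Apoc1, Apoh, Clu and Pon1, other genes of plasma particles, were not called with fasting in either genotype.

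Transcription factors known to act on these promoters had 22 measured genes. Of these 2 rose and 3 fell in WT (background 3.10% and 3.68%), and 3 rose and 6 fell in Mcl1KO livers (8.20% and 6.25%). Creb3l3, which encodes a membrane-bound factor known to drive Apoa4 and Apoa5, rose by 0.45 in both (limma adjusted p = 0.0033 and 0.0018). Ppargc1a, a coactivator of fasting, rose by 1.80 and 1.64. Fed Mcl1KO replicate 2 had 7.01 for Ppargc1a, while the rest of its group had 5.67 to 5.95. It was the highest of its group for 5 of the 9 members (Apoa1, Apoa4, Apob, Apoc3 and Apom) and the lowest for Apoa2. Other arrays came near this count. Fed WT replicate 5 and fasted WT replicate 3 were each highest for 4 members, and fed Mcl1KO replicate 1 was lowest for 5. Hnf4a measured 0.42 in WT and rose by 0.48 in Mcl1KO livers (adjusted p = 0.0122), a call lost in a fit to the Mcl1KO arrays alone (adjusted p = 0.052). Mlxipl, the glucose-responsive factor ChREBP, fell by 1.39 and 1.75, and Nr0b2, a repressor of other nuclear receptors, fell by 1.56 in Mcl1KO livers.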

How the data were processed

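RNA of 20 livers was hybridised to 20 Affymetrix arrays, 1 per mouse. The authors deposited log2 signals made with RMA (background correction, quantile normalisation and summary of probes) and Partek 7.0, per the submitters' processing notes. No source used here gives RMA settings or annotation version. The log base is unstated, and log2 is assumed from RMA and the range of 1.34 to 12.56. Quantile normalisation hides a shift shared by most transcripts. The authors' array annotation gave 1 symbol to 19572 of 22206 probe sets and none to 2634, and no member had several probe sets.

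Differences were computed from these values with limma 3.58.1 in R 4.3.3: 1 mean per group over all 20 arrays, eBayes moderation, and Benjamini-Hochberg adjustment over all 22206 probe sets. The SE assumes 1 spread for the 4 groups, and the labels call the mice biological replicates. Named genes were the members, Mcl1, and the 5 genes most like a member that moved by at least 1. In each list and comparison, up to 3 called genes per direction were eligible, or the 2 largest differences where there was no call. Not all eligible genes are described, and Cebpa, Xbp1, Srebf2, Ces1g, Vti1a, Snx17 and Asgr2 are among those left out. Neighbouring genes and a few others quoted for contrast fall outside that rule and were chosen after their values were seen. Members and lists were chosen with earlier results of these data known. Replicate numbers did not pair the samples (correlations of same-numbered deviations from -0.14 to 0.17). Alternatives were other scalings, moderation, weights, filters, fits and arrays left out. The steps were tested on simulated data. The number of arrays limits the precision. Plots used matplotlib 3.10.9 (Python 3.11.15).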

Additional observations from a re-analysis of the deposited data

Results flagged for a closer look

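In a group of 5, an array was set apart when its gap to the nearest other array exceeded the published limit for a share of the group's range. Chance sets apart about 1 group in 20, and many groups were looked at, so chance alone gives some such values. For the 9 members in 4 groups each, 3 values met this. Fed Mcl1KO replicate 2 had 10.34 for Apoa4, against 8.17 to 8.67 in the other 4 livers, and 11.02 for Apoc3, against 10.84 to 10.86. Fasted Mcl1KO replicate 4 had 12.55 for Apoe, against 12.31 to 12.36.

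Among pathway genes, Ppargc1a was 7.01 in fed Mcl1KO replicate 2 (others 5.67 to 5.95), Sec24d was 6.02 in fed WT replicate 3 (others 6.48 to 6.63) and Hnf4a was 9.24 in fasted WT replicate 4 (others 8.92 to 9.01). Fed Mcl1KO replicate 4 had 9.42 for Lrp1 (others 9.06 to 9.13) and 5.16 for Gpihbp1 (others 5.58 to 5.72). The rise of Gpihbp1, an anchor of lipoprotein lipase, with fasting in Mcl1KO livers (0.47, limma adjusted p = 0.0216) was lost without that array or without fasted Mcl1KO replicate 2 (adjusted p up to 0.0756).

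The fasting difference of Apol9a differed between genotypes by -1.38 on the log2 scale (limma interaction, adjusted p = 0.0317, and 0.0089 to 0.122 over its alternatives).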

How the results depend on the processing

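Of 1296 member values under alternatives, 0 lost a call and 7 gained one. All of the latter concern Apoa4 and Mttp in fasted livers and Apoa1 with fasting in Mcl1KO, and no called member value changed sign. The counts of called members kept to 3 of 9 for fasting in WT and 4 of 9 in Mcl1KO, apart from 5 with ordinary variances.

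Between genotypes in fasted livers 0 members were called, and 1 was with trend and robust moderation (Mttp), in the fit to the fasted arrays alone and with dim probe sets removed (Apoa4 in both), and 0 to 1 with arrays left out. For pathway genes, the 11 called in fasted livers became 7 in the fit to fasted arrays alone and 9 to 17 with arrays left out. The 18 called with fasting in WT became 12 to 19, and in fed livers 0 to 1 differed between genotypes. The 1 interaction called became 2 after quantile normalisation, with trend and robust moderation or without dim probe sets, 4 with array weights, 0 with ordinary variances, and 0 to 5 with arrays left out. The replicate block changed no member's call and gave 18, 40, 0, 10 and 1 pathway genes in the 5 comparisons, against 18, 41, 0, 11 and 1 without it.

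Counts over all probe sets moved from 8 to between 4 (ordinary variances) and 26 (array weights) for genotype in fed livers. In fasted livers they moved from 1109 to between 399 (fasted arrays alone) and 1707 (without fasted Mcl1KO replicate 3), and for the interaction from 30 to between 3 (ordinary variances) and 331 (without fasted Mcl1KO replicate 3). The cause was not tested. Signals near the top of the range limit what can be said of Apoa1, Apoa2, Apob, Apoe and, in fasted Mcl1KO livers, Apoa4.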
